A study of Mus musculus with 3 samples.

Results

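Bmp15, Gdf9, Oosp1, Zp1, Zp2 and Zp3, the genes of the secreted factors and of the zona pellucida of the oocyte, were followed in mouse 2-cell embryos on Illumina mouse-8 BeadChip arrays. The members were taken by the gene symbol of the array annotation, and all 6 of them were found among the 16593 genes on the array, each with 1 probe. There were 2 arrays of 2-cell NSN embryos, called a and b, which derived from developmentally incompetent MII oocytes, and 1 array of 2-cell ctrl embryos, derived from competent MII oocytes. All embryos were of the strain F1B6C3H, and the oocytes were inseminated in vitro and the embryos taken 26 hr later. NSN oocytes, whose nucleolus has no surrounding heterochromatin ring, were by the methods isolated from the ovaries of PMSG-primed females of 4 to 6 weeks and matured in culture, whereas the control eggs are described by the study as ovulated, so that the oocyte type and the culture cannot be told apart. The sources used here do not say whether both 2-cell NSN arrays came from separate pools of embryos, and the spread between them may be technical. The control was a single array without a replicate. By the methods labelling started from a set mass of mRNA, which was amplified, and the signals were normalized. They therefore give neither the RNA per embryo nor the number of intact embryos in a sample, and these cannot be told apart.

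GDF9 and BMP15 are secreted growth factors of the TGF-beta family. The oocyte releases them towards the surrounding granulosa and cumulus cells, which answer through BMP and TGF-beta receptors and SMAD proteins, and follicle growth in the mouse depends on this signal. OOSP1 is a secreted protein of the oocyte. ZP1, ZP2 and ZP3 are the glycoproteins of the mouse zona pellucida, the coat that surrounds the egg and the cleaving embryo: ZP2 and ZP3 build its filaments, ZP1 cross-links them, and ZP2 is cleaved after fertilisation. These genes are transcribed in the growing oocyte, and the mRNA found in a 2-cell embryo is mostly a maternal store that is cleared as the embryonic genome is activated.

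The upstream sequence of 3 members is shown because these are the members above background whose start region was at hand, with RefSeq sequences of the GRCm38.p6 build. Each line is the 250 bases before the annotated start, on the strand of the gene: Bmp15 at chrX:6320725-6320974 (minus strand), Oosp1 at chr19:11691052-11691301 (minus strand) and Zp3 at chr5:135979855-135980104 (plus strand). Capitals mark, on either strand, the E-box CANNTG, the letters bound by basic helix-loop-helix factors such as FIGLA, a pair of homeodomain motifs (TAATTA and also TAATTG), and the TATA motif TATAA.
Bmp15: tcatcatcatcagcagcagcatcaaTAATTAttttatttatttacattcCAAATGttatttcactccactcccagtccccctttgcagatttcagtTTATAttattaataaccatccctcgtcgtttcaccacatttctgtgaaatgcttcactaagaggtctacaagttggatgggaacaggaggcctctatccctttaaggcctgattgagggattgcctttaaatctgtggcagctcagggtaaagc
Oosp1: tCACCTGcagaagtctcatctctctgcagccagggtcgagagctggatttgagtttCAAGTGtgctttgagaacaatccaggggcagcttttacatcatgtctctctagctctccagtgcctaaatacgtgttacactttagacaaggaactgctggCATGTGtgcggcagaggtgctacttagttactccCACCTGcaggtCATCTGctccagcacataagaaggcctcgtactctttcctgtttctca
Zp3: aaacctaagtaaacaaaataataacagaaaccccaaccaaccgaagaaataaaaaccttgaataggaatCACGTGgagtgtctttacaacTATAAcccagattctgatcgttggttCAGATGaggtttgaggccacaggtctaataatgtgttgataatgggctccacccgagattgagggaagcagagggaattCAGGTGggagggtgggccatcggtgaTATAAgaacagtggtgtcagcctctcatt

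Zp3 held 3 E-boxes, the farthest of them (CACGTG) 181 to 176 bases before the start, and a TATA motif at 160 to 156 and at 29 to 25 bases. Oosp1 held 5 E-boxes, among them CACCTG 59 to 54 bases before the start, and neither a homeodomain motif nor the TATA motif. Bmp15 held 1 E-box, CAAATG, 201 to 196 bases before the start, 1 homeodomain motif (TAATTA) at 225 to 220 and, on the other strand, 1 TATA motif at 154 to 150. Of 32841 windows of the same length, 66.2% held an E-box, 11.3% held a homeodomain motif and 22.8% held the TATA motif, so E-boxes were common in any window. None of the marked motifs overlapped another. These matches describe the letters only.

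The signals are background-subtracted intensities and fall below 0 where a probe was dimmer than the background. A probe was taken as above background where its signal reached the limit that stands for a detection p value of 0.01. This limit was 8.57 on 2-cell NSN array a, 8.28 on array b (assumed by scaling that of array a) and 6.10 on the control array. Of 25697 probes, 0.751% and 0.790% were above it on the 2-cell NSN arrays a and b, against 4.22% on the control array. A gene was called when the mean of both 2-cell NSN arrays on the log2 scale was at least 1.5-fold from the control and the gene passed the limit either in the control or in both 2-cell NSN samples. Any dimmer signal was raised to its limit, which turns a fold into a lower bound. The level of a probe depends on its own sequence, and levels were therefore compared between arrays and not between genes.

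Of the 6 genes, 4 were above background on the control array (Bmp15, Gdf9, Oosp1 and Zp3), only Oosp1 was also above it on the 2-cell NSN arrays, and Zp1 and Zp2 were below it everywhere. In 2-cell NSN embryos Bmp15, Gdf9 and Oosp1 were at least 1.5-fold lower and no member was higher, although the direction of Oosp1 turned with normexp background correction and quantile normalization. Over all 949 genes above background 44.5% were called lower (422 genes) and 8.32% higher (79 genes). This split moved with the scaling, to 270 lower and 131 higher with normexp and quantile normalization, to 510 lower and 29 higher with log2(signal + 16) and to 573 lower and 33 higher after rescaling the 2-cell NSN arrays to the control.

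**Figure D1:**
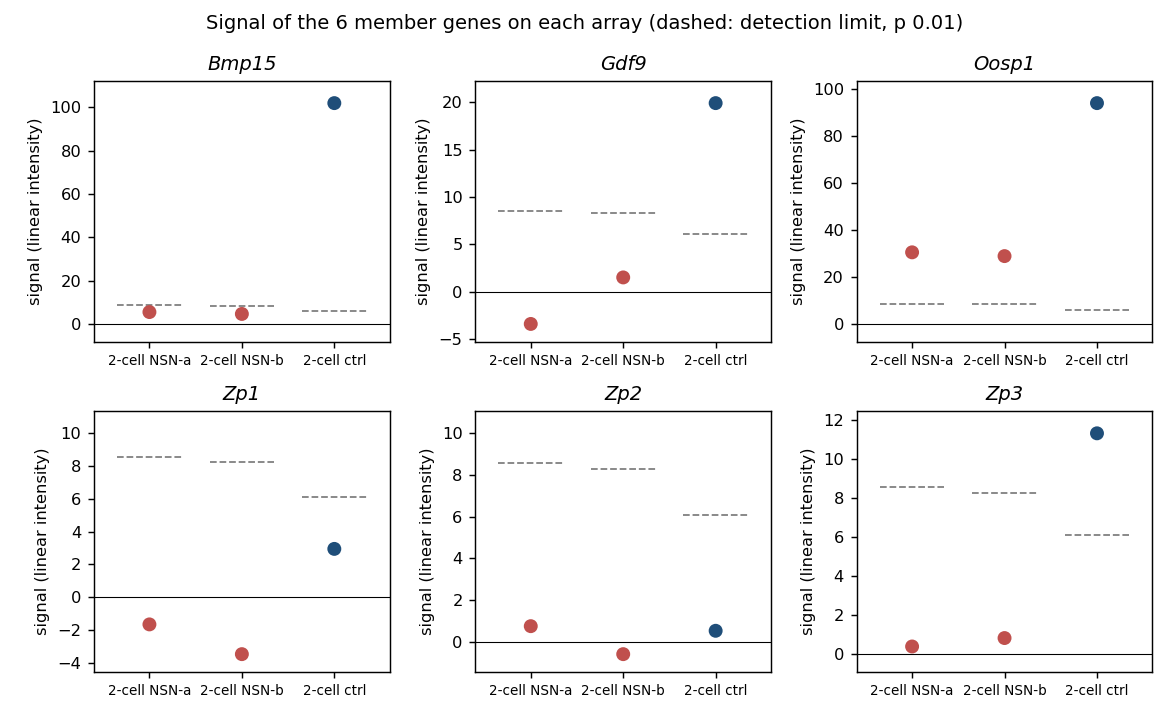
Signal (linear intensity) of each member on the 2-cell NSN arrays a and b (red) and the 2-cell ctrl array (blue), 1 point per array, with the limit of each array as a dashed line. Only Oosp1 lay above the limit on all 3 arrays, with 30.5, 28.9 and 94.0 from left to right, and Zp1 and Zp2 lay below it on all 3.

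Bmp15 (chrX:6314054-6320724) had a signal of 5.49 and 4.61 on 2-cell NSN arrays a and b, against 102 on the control array. Both 2-cell NSN signals were below the limit and close to each other, and the control stood far above them. On the deposited scale the fall of Bmp15 in 2-cell NSN embryos was therefore at least 12.1-fold (log2 difference of -3.60). With the lower limits tried, those at a detection p value of 0.05 and those from the array's own low signals, Bmp15 was detected in all samples and measured at 20.3-fold lower. Its fall was smaller where the signals were put on another scale, at 5.60-fold with log2(signal + 16) and 2.74-fold with normexp and quantile normalization, so that 12.1-fold is a bound for the deposited scale alone.

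Gdf9 (chr11:53430774-53437904) gave -3.40 and 1.51 on 2-cell NSN arrays a and b, against 19.9 on the control array. The 2-cell NSN arrays did not show the transcript above background, and the bound was at least 2.36-fold lower (log2 difference of -1.24). The fall of Gdf9 was 1.58-fold with normexp and quantile normalization, and the bound was 6.14-fold with the limit at a detection p value of 0.05.

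Oosp1 (chr19:11667460-11691051) had 30.5 and 28.9 on 2-cell NSN arrays a and b (29.7 ± 1.14, SD, n = 2), against 94.0 on the control array. It was thus still detected in 2-cell NSN embryos, with signals that differed little between both arrays, and was 3.17-fold lower than in the control, a direction that depended on the normalization. The limma fit covered the 136 probes above background on all 3 arrays, and its spread comes from the 2-cell NSN arrays alone. In it the log2 difference of Oosp1 was -1.66 (standard error 0.14, adjusted p = 0.000912 from limma). With 1 control array this p compares these arrays and does not show a difference between the conditions. In this fit 22.8% of the probes (31 of 136) were lower and 59 probes higher at an adjusted p under 0.05, and with normexp and quantile normalization 8 were lower and 87 higher. With normexp and quantile normalization the log2 difference of Oosp1 was 0.41 (adjusted p = 0.0247 from limma), in the opposite direction. The median of the 124 genes above background on all 3 arrays moved with this setting too, to 1.06, against 0.56 in the reported processing, and relative to that median Oosp1 stood at -0.66 with normexp and quantile normalization and at -2.22 in the reported processing. These 124 genes had to pass the limit on both 2-cell NSN arrays, which leaves out 392 genes called lower by a bound alone. Their median is therefore not that of a typical gene.

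The zona genes were less well measured. Zp3 (chr5:135980105-135988624) had 0.393 and 0.826 on 2-cell NSN arrays a and b, against 11.3 on the control array, where it was above background. Its bound of at least 1.34-fold lower (log2 difference of -0.43) missed the threshold. A bound can reach 1.5-fold only where the control signal is at least 12.6, so Zp3 could not have been called lower by this rule. Zp3 was called lower with both lower limits, with log2(signal + 16) and after rescaling.

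Zp1 (chr19:10914296-10920601) gave -1.67 and -3.48 on 2-cell NSN arrays a and b, against 2.94 on the control array. Zp2 (chr7:120126762-120145291) gave 0.742 and -0.601 on 2-cell NSN arrays a and b, against 0.521 on the control array. All these signals were below background and no fold is given for either gene. At a detection p value of 0.05 Zp1 reached the limit on the control array, and it was not called.

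**Figure D2:**
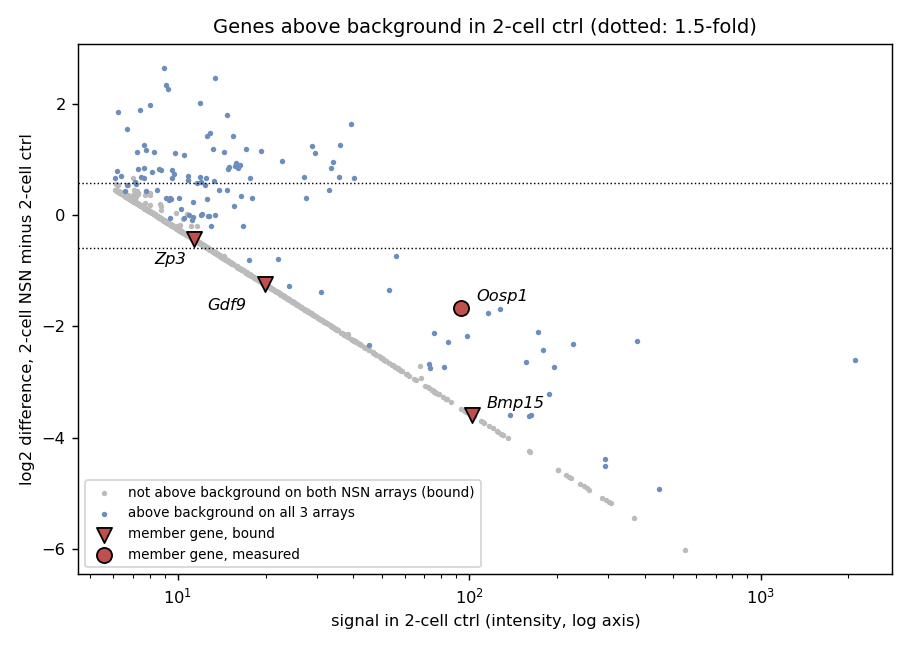
Log2 difference between 2-cell NSN and 2-cell ctrl (vertical axis) against the signal in the control (horizontal axis, log scale) for the genes above background in the control, with grey points for bounds, blue points for genes above background on all 3 arrays and red symbols for the members. The grey line is set by the limits, and Zp3 (-0.43), Gdf9 (-1.24) and Bmp15 (-3.60) lie on it, whereas Oosp1 (-1.66, and 0.41 with normexp and quantile normalization) lies above it.

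The plot of the log2 difference against the control signal sets the members among all genes. Of the 460 genes with a control signal of at least 12.6, 91.7% were called lower (422 genes), and all 3 members of this kind (Bmp15, Gdf9 and Oosp1) were lower too, so their share was near that of any gene with such a signal. Of the same 460 genes, 14.8% (68) were above background on all 3 arrays, as Oosp1 was and Bmp15 and Gdf9 were not.

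Among the genes measured on all 3 arrays, 30 were lower, and 23 of these had a larger fall than Oosp1. The genes whose pair of log2 differences lay nearest to that of Oosp1, by Euclidean distance over both 2-cell NSN arrays and among 123 other genes, were Myh9 (distance 0.14), a non-muscle myosin heavy chain, Uhrf1 (0.21), a cofactor of maintenance DNA methylation, and Eif3i (0.46), a subunit of a translation initiation factor. Myh9 had 43.2 and 36.0 on 2-cell NSN arrays a and b, against 127 on the control array (3.23-fold lower, but with a log2 difference of 0.45 with normexp and quantile normalization). Uhrf1 had 32.5 and 36.4 on the 2-cell NSN arrays, against 115.7 on the control array (3.36-fold lower, and likewise 0.34 with that normalization). Eif3i had 13.7 and 10.5, against 31.1 on the control array (log2 difference of -1.38, and 0.35). These genes thus turned with the normalization as Oosp1 did.

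Other proteins that the oocyte secretes or carries on its surface were mostly below background, since of 13 such genes on the array 2 were above it. Omt2b had 5.07 and 6.39 on 2-cell NSN arrays a and b, against 93.9 on the control array, and was at least 11.2-fold lower, or 5.06-fold with log2(signal + 16) and 2.35-fold with normexp and quantile normalization. Oosp2, which is related to Oosp1, had 0.596 and -0.377 on the 2-cell NSN arrays, against 11.7 on the control array at 1 of its 2 probes, and its bound of at least 1.39-fold missed the threshold. Like Zp3, it lay in the range of control signals in which no bound can be called, and it too was called lower with both lower limits (log2 differences of -1.85 and -1.39), with log2(signal + 16) (-0.76) and after rescaling (-0.97).

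Of 21 genes on the array for BMP and TGF-beta receptors, SMAD proteins and the proteases that process their ligands, 3 were above background, 1 of them was lower and none was higher. Smad1, a transducer of BMP receptors, had 1.75 and 1.66 on the 2-cell NSN arrays, against 37.3 on the control array at 1 of its 3 probes, and was at least 4.43-fold lower, or 1.89-fold with normexp and quantile normalization. With its probes averaged Smad1 was not called (log2 difference of -0.37). Acvr1, a type I receptor of BMP ligands, had 24.8 and 16.5 on 2-cell NSN arrays a and b, against 14.8 on the control array. Both 2-cell NSN signals of Acvr1 were above the control, but at 1.36-fold (log2 difference of 0.45) it was not called. Its log2 difference was 1.27 with normexp and quantile normalization and 0.74 without 2-cell NSN array b, both past the threshold, and -0.05 after rescaling. None of 15 cumulus cell targets of GDF9 and BMP15, such as Has2 and Ptx3, and none of 14 transcription regulators of oocyte genes, among them Figla and Nobox, was above background on any array. The cumulus targets and the transcription regulators of these lists were thus not measured here.

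Set beside other maternal transcripts, 2 of 7 genes of the Tcl1 family were above background and both were lower, 3 of 8 of the subcortical maternal complex were above it and 2 were lower, and 6 of 15 genes of maternal mRNA storage and decay were above it and 3 were lower, where 3 of 4 members and 44.5% of all genes above background were lower. No gene with a control signal under 12.6 could be called lower by this rule, so these counts follow the control signals in each list. Of the 460 genes with at least that control signal, 91.7% were lower. With normexp and quantile normalization the genes lower were 1 of 2 in the Tcl1 family, 0 of 3 in the subcortical maternal complex, 2 of 6 in storage and decay and 2 of 4 members, beside 28.5% of all genes. No gene of these lists was higher in the reported processing, and 1 of storage and decay, Ybx2, was with that normalization. Tcl1, an activator of the kinase AKT, had 46.2 and 44.8 on the 2-cell NSN arrays, against 228 on the control array, and was 5.01-fold lower at 1 of its 2 probes (log2 difference of -2.32, and 0.02 with normexp and quantile normalization). Ooep, of the subcortical maternal complex, had 11.1 and 8.99, against 24.1 on the control array (2.42-fold lower, and a log2 difference of 0.33 with that normalization). Nlrp5, of the same complex, had 6.61 and 8.43, against 12.9 on the control array at 1 of its 3 probes, a bound of at least 1.52-fold lower. This turned to a log2 difference of 0.33 with that normalization and was not called with log2(signal + 16) (-0.30). With its probes averaged Nlrp5 was below background. Ybx2, an RNA-binding protein that stores maternal mRNA, had 32.6 and 35.1, against 55.9 on the control array at 1 of its 2 probes (1.65-fold lower). The log2 difference of Ybx2 was 1.07 with that normalization, a call in the opposite direction, and -0.53 with log2(signal + 16), short of the threshold. Nlrp14, a maternal NLRP protein and the only lower gene of 4 above background among 15 other oocyte genes, had 12.8 and 8.13 on the 2-cell NSN arrays, against 67.6 on the control array (at least 6.58-fold lower, with the call lost at a log2 difference of -0.39 with that normalization). Tcl1, Ooep and Ybx2 were, like Oosp1, still above background on all 3 arrays, and no test of a difference between the lists was made.

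The labelled stage was checked against markers of the 2-cell embryo. Of 14 such genes on the array, 4 (Gm428, Tcstv1, Tcstv3 and Tdpoz1) passed the limit on the control array and none on the 2-cell NSN arrays, where the highest signals of these 4 were 6.34 and 5.54. All 4 were lower in 2-cell NSN embryos (3 with normexp and quantile normalization, where Tcstv1 was at -0.52), Gm428 by at least 6.96-fold and Tcstv3 by at least 4.94-fold, or by 1.72-fold and 1.76-fold with that normalization. Each of these 4 had a control signal of at least 12.6, and of all 460 such genes 91.7% were called lower. A link between their fall and that of the members was not tested. Of 18 cumulus and granulosa cell markers, 16 sperm and testis markers and 10 blood and endothelium markers, none was above background on any array. Of all probes only 0.751% and 0.790% were above it on 2-cell NSN arrays a and b and 4.22% on the control array. Lists of this size could thus lie wholly below background, and these counts do not show that other cells were absent. The summed signal of the cumulus and granulosa markers was 16.8 and 18.2 on the 2-cell NSN arrays, against 8.67 on the control array, with no single marker over 5.47.

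**Figure D3:**
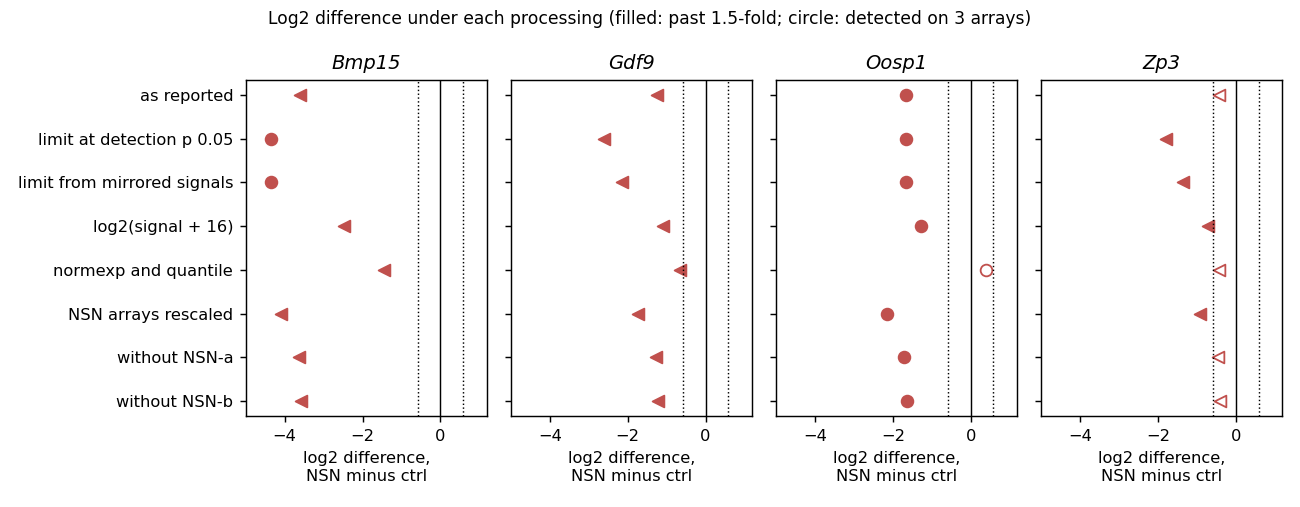
Log2 difference of each member above background (horizontal axis, 2-cell NSN minus 2-cell ctrl) under the reported processing and 7 alternatives (rows), with filled symbols past 1.5-fold, circles for genes above background on all 3 arrays and triangles for the others. Bmp15 and Gdf9 stayed past the threshold in every row shown, Oosp1 turned to 0.41 with normexp and quantile normalization, and Zp3 passed it in 4 rows.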

How the data were processed

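RNA of 3 samples of 2-cell embryos (2 of 2-cell NSN, 1 of 2-cell ctrl, grouped by their titles) was amplified, labelled and hybridised by the authors to Illumina mouse-8 BeadChips. The deposited values are intensities on a linear scale which the authors background-subtracted and normalized with the rank-invariant algorithm in BeadStudio 3, per the submitters' processing notes and the methods. Column medians were 0.0443 and 0.0195 for 2-cell NSN arrays a and b and 0.0916 for the control. Another table with 3 value columns that match no sample was not used. By the study's discussion only polyadenylated RNA was amplified, so a transcript that lost its tail would read low without being degraded. How the rank-invariant reference was chosen is not given in the sources used here.

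The value table holds no detection p values. Limits were read from 896 deposited signals that matched 1 pair of signal and detection p value in the study's own array listing (within 0.002%), and the limit of 2-cell NSN array b was scaled from that of array a by the spread of signals below the median. Probes were named from the platform annotation, and genes with several probes were taken at the brightest. Signals were raised to the limit, put on the log2 scale and compared in Python 3.11.15 (pandas 2.3.3, numpy 2.4.6), and limma 3.58.1 in R 4.3.3 was fitted with a trend on intensity, p values adjusted by Benjamini-Hochberg and 1 residual degree of freedom, the lone control being assumed to vary like the others. Both were tested on simulated data. The small number of arrays limits the precision.

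The members, gene lists and alternatives were chosen with earlier results of these data known. The genes named are the 6 members, up to 2 genes per list with the highest mean signal among those above background (Tcstv1 and Tdpoz1, which complete a count, were added after their values were seen, and Has2, Ptx3, Figla and Nobox are named only as examples of lists below background), and the 3 genes nearest to each member measured on all 3 arrays. Alternatives were limits at a detection p value of 0.05, limits at the 99th percentile of the low signals mirrored about the median, log2(signal + 16), normexp (offset 16) with quantile normalization, rescaling of the 2-cell NSN arrays, leaving out either of them, averaged probes, a fold of 2 and a threshold to be passed by both 2-cell NSN arrays. Rescaling divided the signals and limits of 2-cell NSN arrays a and b by 1.43 and 1.39. Each ratio is the median to the control over the 136 probes above background on all 3 arrays, not over all probes.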

Additional observations from a re-analysis of the deposited data

How the results depend on the processing

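The number of members lower in 2-cell NSN embryos was 3, and between 2 and 4 under the alternatives, and no member was called higher under any of them. Bmp15 and Gdf9 kept their direction and stayed past 1.5-fold in all 8 alternatives run on their log2 difference, at log2 differences from -4.34 to -1.46 for Bmp15 and from -2.62 to -0.66 for Gdf9. Only log2(signal + 16) and normexp with quantile normalization used the 2-cell NSN signals of Gdf9. In the other alternatives its value was set by the control signal and the limits, so its call there is no further support. Bmp15 was detected on all arrays with both lower limits. Without 2-cell NSN array a or array b the log2 difference of Oosp1, which was measured, ran from -1.70 to -1.62. It ran from -3.62 to -3.57 for Bmp15, from -1.27 to -1.22 for Gdf9 and from -0.45 to -0.40 for Zp3. For these genes both 2-cell NSN signals were raised to the limits, and the limit of array b was scaled from that of array a. Their ranges therefore show the limits alone and not how far the arrays agreed. Oosp1 turned to 0.41 with normexp and quantile normalization, as a mean difference and in limma alike, without reaching 1.5-fold higher. In limma Oosp1 kept its direction in 6 of 7 alternatives, at log2 differences from -2.16 to -1.27, and turned in the other. These included a fit without the trend on intensity and a fit to probes above background in either group. In the latter many signals sit at a limit and have no spread of their own. Zp3 passed the threshold at a detection p value of 0.05 (-1.81), with limits from mirrored signals (-1.34), with log2(signal + 16) (-0.72) and after rescaling (-0.92). The first and second of these come from the lower floor, which allows a larger bound. The same holds after rescaling, which lowered the limits of the 2-cell NSN arrays along with their signals. For log2(signal + 16) and for Oosp1 the cause was not tested. The use of the limit of 2-cell NSN array a on every array, added after seeing the data, changed no call of a member. Over all genes the median log2 difference above background was -0.41 as reported, -0.37 with normexp and quantile normalization, -0.63 with log2(signal + 16) and -0.90 after rescaling. No paired analysis was possible because the control was a single array and the sources used here name no matching of samples. The folds of Bmp15 and Gdf9 are limited by signal over background on the 2-cell NSN arrays.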
